A study of Mus musculus with 2 samples.

Results

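Mirtrons are microRNA (miRNA) precursors that are cut out of a host transcript by splicing instead of by the nuclease Drosha. A short intron is spliced, debranched and folded into a hairpin, and Dicer then cuts the hairpin into a small RNA of the kind that lowers the output of target mRNAs. In a conventional mirtron both ends of the hairpin are ends of the intron. In a tailed mirtron only one hairpin end is a splice site, and the rest of the intron is trimmed away from the other. Most miRNAs of the embryonic neural tube, the structure that forms the brain and spinal cord, instead come from Drosha-cut primary transcripts.

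The predicted mirtrons described here were the miRNA genes with symbols from Mir6896 to Mir7094, any letter or copy suffix included, a run of names given to hairpins predicted from sequencing. The GENCODE M21 annotation of GRCm38 (also called mm10) held 201 such symbols. Of these, 178 had a row of counts, out of 1973 miRNA genes in all, and the other 23 are not analysed here. The rule uses the name only, not the counts, although the range of names was proposed with earlier results of these data known.

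RNA of less than 30 nt was sequenced from the neural tube of B6NCrl mouse embryos at embryonic day 11.5. The series has a single group of 2 biological replicates, each 1 pool in which both sexes were mixed, 109 embryos for replicate 1 and 88 for replicate 2. There was no other genotype, treatment, stage or tissue, so levels and the distance between these pools are what can be described. Reads counted for miRNA genes on their own strand numbered 3708662 in replicate 1 and 4055883 in replicate 2. Levels are given as counts per 1000000 of these reads (CPM), with mean ± SD over n = 2. A count of 0 allows up to 3 counts, or 0.809 CPM in replicate 1 and 0.740 CPM in replicate 2. Such limits and all intervals below cover counting error only. The 12 neural marker genes measured, led by Mir92b, summed to 9039 and 7860 CPM with none at 0. Several genes listed in this set are copies of the same miRNA, such as Mir9-1, Mir9-2 and Mir9-3. Reads with several places in the genome were left out, so this sum can be too low and is not comparable with single-copy genes. The endothelial gene Mir126a stood at 24945 and 22302 CPM and 5 mesenchyme genes, copies among them, at 23811 and 17507 CPM. The 6 muscle genes, of which Mir133a-1 and Mir133a-2 were at 0, summed to 1458 and 930 CPM. Mir133a-1 and Mir133a-2 are copies too, and with shared reads left out their 0 does not show absence. Fewer cells of a type and less RNA per cell cannot be told apart in such tissue.

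RefSeq entries for GRCm38.p6 were found for 163 of the 178 predicted mirtrons, and 161 of them had a hairpin sequence, all at the GENCODE coordinates. The hairpins printed next show the arrangements that the group holds. Capitals mark the intron's own GU start and AG end, where the hairpin reaches them. Mir6944 fills a whole intron of Dbn1 (chr13:55477681-55477776, minus strand), Mir7083 takes the last part of an intron of Dock6 (chr9:21809941-21810000, minus strand) and Mir6977 the start of an intron of Ptprs (chr17:56418846-56418909, minus strand).
Mir6944 hairpin: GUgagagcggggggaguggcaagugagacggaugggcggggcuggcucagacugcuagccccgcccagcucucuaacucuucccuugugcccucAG
Mir7083 hairpin: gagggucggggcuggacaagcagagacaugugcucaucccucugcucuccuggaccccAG
Mir6977 hairpin: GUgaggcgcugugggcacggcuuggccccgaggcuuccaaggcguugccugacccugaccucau

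Mature arms of members with the highest counts follow, with the seed, bases 2 to 8 that pair with targets, in capitals. Both arms are printed for Mir6944 and Mir7083, and only the 3p arm for the others. Mir6951, also among the highest, has no RefSeq entry. The arms are shown because the levels of their genes carry most of the results below. Counts are per hairpin and do not tell which arm was read.
miR-6944-5p: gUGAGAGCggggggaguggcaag
miR-6944-3p: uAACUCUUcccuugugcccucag
miR-7083-5p: uCGGGGCUggacaagcagaga
miR-7083-3p: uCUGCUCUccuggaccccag
miR-6935-3p: uGUUCUUUgucuuuccacag
miR-6897-3p: cGGUCUGUguucuucccccag
miR-6975-3p: uCUCUCCUuucuccuccuag
miR-7069-3p: cCUGCCCUgccaaccccuaca
miR-6900-3p: uGGUGAUGggcucucuuguag
miR-6958-3p: uCAGCUGCcucuugccaucacag
None of these seeds occurs in another one listed. Of the 3p arms printed here, 7 of 8 close with ag, with miR-7069-3p the exception. Their share of C and U ranged from 52.4% in miR-6900-3p to 90% in miR-6975-3p.

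Nearly all the hairpins lay at the edge of an intron. A hairpin end within 5 nt of an intron's end on the same strand was counted as lying at a splice site. Of 178 predicted mirtrons, 170 had an end at a splice site (95.5%), against 42 of 1716 other miRNA genes matched to the annotation (2.45%). The 3′ splice site was the one used in 166 members, and in 165 of these the hairpin's last base was the intron's last base, with Mir7010 the exception. In 151 members (84.8%) the hairpin met the 3′ splice site only, leaving a 5′ tail of 7 to 36205 nt with a median of 421 nt. In 15 members (8.43%) both ends were splice sites, and in 4 members only the 5′ end was one. Since mirtrons are predicted from this very placement, these shares describe the annotation and were not tested.

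**Figure D1:**
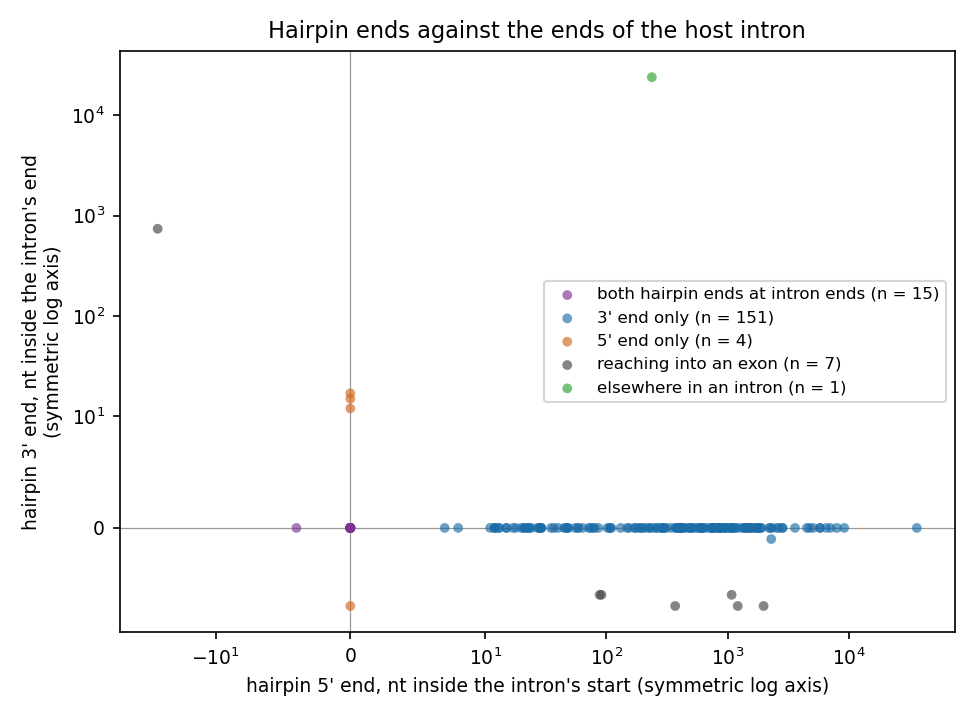
Distance of each hairpin's 5′ end from the start of the host intron (horizontal axis, nt) and of its 3′ end from the intron's end (vertical axis, nt), both on symmetric log axes, for 178 predicted mirtrons. Points on the horizontal line end at the 3′ splice site, as 166 hairpins did within 5 nt, and points at the crossing fill the whole intron.

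Of the 8 members outside these classes, 7 reached across a splice site into an exon. Mir6914, Mir6903 and Mir6901 ran 6 nt past the intron's end into the next exon, and Mir6904, Mir7029 and Mir6950 ran 7 nt past it. Mir7025 began 30 nt before the start of an intron of Pdgfra. Mir7036b, the remaining one, lay 237 nt inside a long intron of Add1, although another annotated exon of Add1 overlaps it. Mir6973b, one of the 4 hairpins at a 5′ splice site, also ended 7 nt past the intron. Exons annotated on the same strand also overlapped members placed at splice sites, among them Mir6935 in Actg1, Mir6958, Mir7068, Mir6945, Mir6936, Mir6990 and Mir7082. Reads from such exons were not told apart from reads of the hairpin. The hosts were protein-coding genes for 177 members, the exception being Mir7094-2 in an immunoglobulin variable gene. They were 174 different genes, and only Arap3, Cmip, Skiv2l and Srebf1 held 2 members each.

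The sequences carried the marks of intron ends. Of 161 hairpins, 149 ended in AG (92.5%), against 89 of 844 other RefSeq hairpins (10.5%). Here and for the arms below, the others were all RefSeq entries outside the 178, including any for the 23 symbols without counts. All 12 sequenced hairpins that fill an intron ended in AG and 10 of them began with GU. The 155 annotated 3p arms had a median of 71.4% C and U, and the 157 annotated 5p arms a median of 45.5% G. For other miRNA genes the medians were 54.5% C and U on 576 3p arms and 27.3% G on 570 5p arms. An AG end closed 121 of the 155 3p arms (78.1%), against 77 of the 576 others (13.4%). The hairpins were short, at a median of 66 nt against 94 nt for other matched genes. Only 3 members, Mir6970, Mir7065 and Mir7094-2, had 20 or more bases in a row in common with another annotated hairpin (1.69%), against 53.6% of other genes. The counts leave out reads with several places in the genome, and few members had such a run.

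Seeds were mostly private to one arm. The 312 mature arms held 287 different seeds, of which 266 stood in 1 arm only, and no seed was shared by more than 3 members. A set of 3 hairpins shares CACCCUG on the 3p arm, and its sequences differ after the seed.
miR-7068-3p: uCACCCUGgacugacucucag
miR-7018-3p: uCACCCUGcugccggcuugcag
miR-7023-3p: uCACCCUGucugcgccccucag
These genes had 7 and 9 counts for Mir7068, 4 and 2 for Mir7018, and 0 and 1 for Mir7023 in replicates 1 and 2. In 39 cases a seed also occurred in a miRNA outside the group. One of them is the seed of miR-218-5p, a miRNA of motor neurons.
miR-7002-3p: uUGUGCUUccccuugccag
miR-218-5p: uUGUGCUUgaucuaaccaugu
Mir7002 had 2 counts in replicate 1 and 3 in replicate 2. Mir218-2, one gene of miR-218, had 1033 and 1230, while the sequence printed is that of Mir218-1. Counts are per hairpin and leave out reads shared by gene copies, so levels of the arms with this seed were not compared.

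Together the predicted mirtrons took 188 CPM in replicate 1 (699 counts, 95% Wilson interval 175 to 203) and 158 CPM in replicate 2 (641 counts, 146 to 171). The mean was 173 ± 21.5 CPM, or 0.0173% ± 0.00215 of all counts. Many were seen, but almost all at a handful of reads. Of the 178, 106 had a count in replicate 1 (59.6%) and 108 in replicate 2 (60.7%). In both libraries 79 had one (44.4%), and in at least one library 135 did (75.8%). Over all 1973 genes, 33.3% had a count in replicate 1, 32.9% in replicate 2, 29.5% in both libraries and 36.7% in at least one. At least 10 summed counts were reached by 28 members (15.7%), below the 22.5% of all genes, and 200 summed counts by 1 member (0.562%), against 15.1% of other genes. Many other genes share runs with another hairpin, and among genes without such a run 77 of 175 members (44.0%) and 376 of 796 others (47.2%) had a count in both libraries. With that restriction, added after seeing the data, members were thus not seen in both libraries more often than other genes. Detection in at least one library was not compared under this restriction. Under it, 200 summed counts were reached by 0.571% of members against 25.6% of others. Of the 50 sequencing-discovered genes Mir3057 to Mir3114, 78% had a count in both libraries, as did all 5 mirtrons known from earlier work. These shares were not tested.

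**Figure D2:**
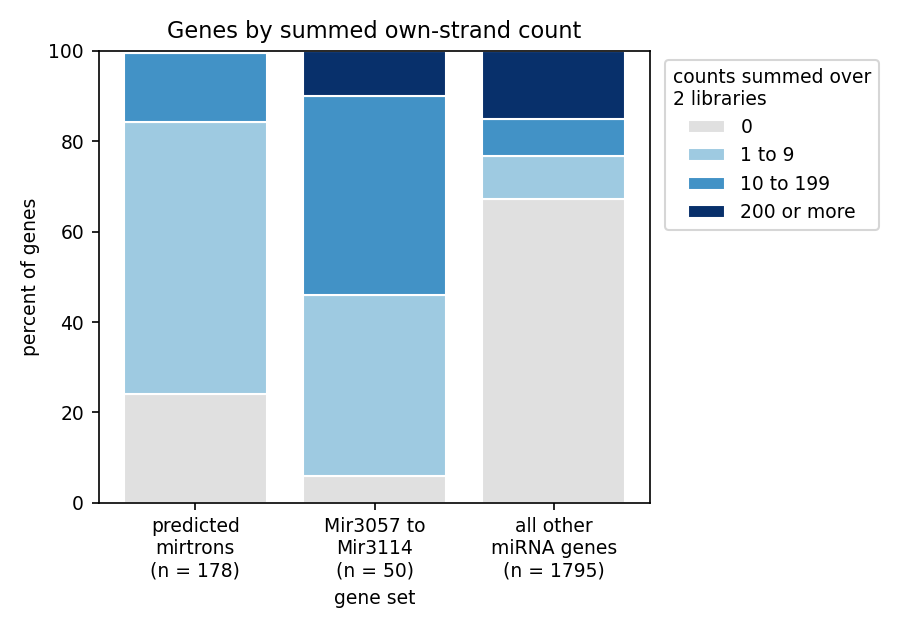
Percent of genes (vertical axis) in each range of own-strand counts summed over the 2 libraries, for the 178 predicted mirtrons, the 50 sequencing-discovered genes Mir3057 to Mir3114 and all 1795 other miRNA genes, which include those 50. Predicted mirtrons fall mostly in the range of 1 to 9 counts, with 107 of 178, whereas most other genes have none.

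The range of 1 to 9 summed counts held 107 members (60.1%), and 32 of these rested on 1 read. No read was found over both libraries for 43 members (24.2%), against 63.3% of all genes, many of which share runs with another hairpin. A single read can be seen in 1 library only. Of the 75 members with 2 to 9 summed counts, 51 were seen in both libraries (68%), 15 in replicate 1 only and 9 in replicate 2 only. Among 123 other genes with 2 to 9 summed counts, 88 were seen in both (71.5%). All 27 members with 5 to 9 summed counts were seen in both libraries. A member found in 1 library only is therefore not shown to be absent from the other.

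Counts lay on the annotated strand throughout. The 178 genes had 0 counts on the opposite strand against 1340 on their own, which allows up to 0.224% of the own-strand counts. Among the 1795 other genes, 80 (4.46%) had at least 1 opposite-strand count, and the opposite strand of all genes drew 78467 counts in replicate 1 and 68621 in replicate 2.

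One gene, Mir6944, stood far above the rest. Its host Dbn1 encodes drebrin, an actin-binding protein of neurons, and the hairpin is the entire 96 nt intron. It had 293 counts in replicate 1 (79.0 CPM) and 250 in replicate 2 (61.6 CPM), a mean of 70.3 ± 12.3 CPM, and ranked 228 of the 1973 genes. In both libraries the next member was Mir7083, with 20 and 24 counts, so Mir6944 exceeded it 14.7-fold and 10.4-fold. Mir6944 made up 41.9% of the group's counts in replicate 1 (95% Wilson interval 38.3 to 45.6) and 39.0% in replicate 2 (35.3 to 42.8). Without it the other 177 members held 109 and 96.4 CPM, or 0.0103% of all counts.

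**Figure D3:**
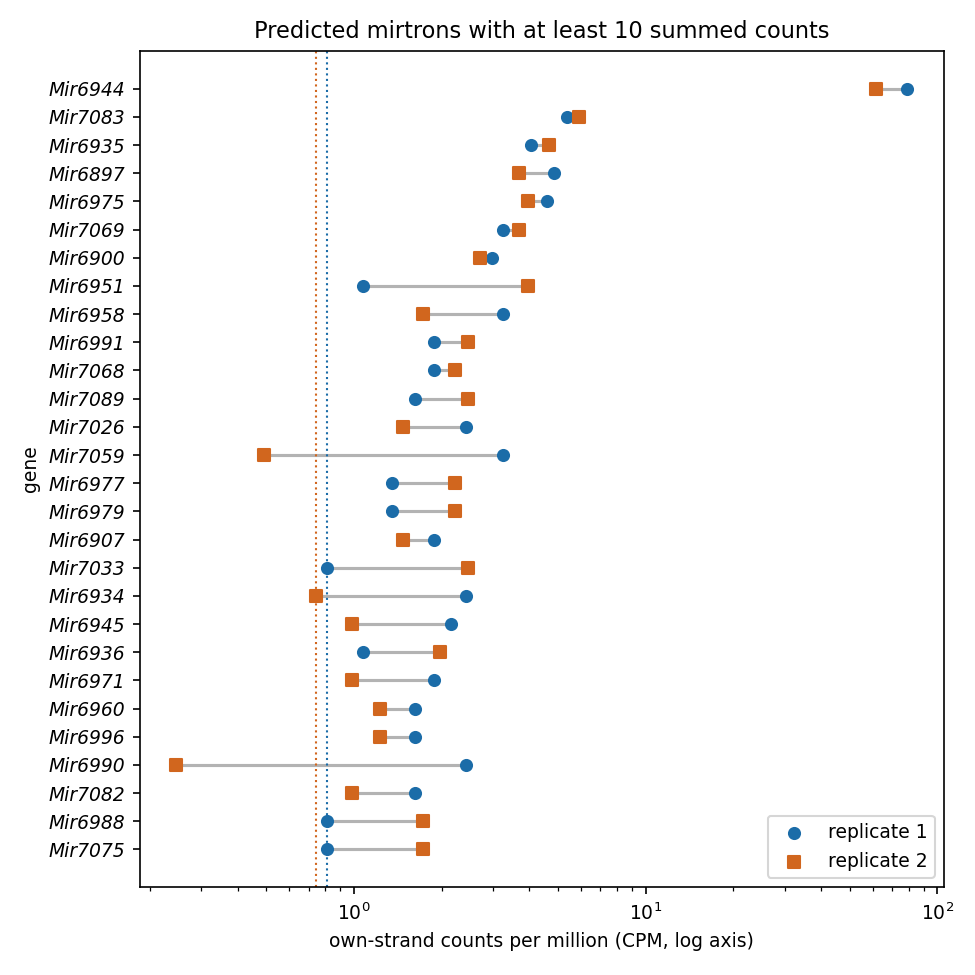
Level of each of the 28 predicted mirtrons with at least 10 summed counts, in own-strand CPM on a log axis, with 1 point per library joined by a line. Dotted lines mark the limit that a count of 0 allows in each library (0.809 and 0.740 CPM). Mir6944 lies near 70.3 CPM and the other 27 between 1.27 and 5.66 CPM on average.

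After Mir6944 came members that meet the 3′ splice site only. Mir7083 in Dock6 had 5.39 CPM in replicate 1 and 5.92 CPM in replicate 2. Mir6935 (chr11:120347350-120347413, minus strand), in the cytoskeletal gamma actin gene Actg1, had 15 and 19 counts, or 4.36 ± 0.453 CPM. Mir6897 (chr1:36144252-36144313, minus strand), in the glycoprotein folding sensor gene Uggt1, had 18 and 15 counts, or 4.28 ± 0.817 CPM. Mir6975 (chr17:35244075-35244135, plus strand), in the RNA helicase gene Ddx39b, had 17 and 16 counts, or 4.26 ± 0.452 CPM. The last 3 overlapped in their ranges over the libraries. Mir7083 stood above them in both pools, but by no more than 9 counts, which is within counting error. Mir7069 in Farsa, a subunit of phenylalanyl-tRNA synthetase, followed at 3.24 and 3.70 CPM, and Mir6900 in the respiratory complex I gene Ndufa10 at 2.97 and 2.71 CPM, both below Mir6975 in each library and again within counting error.

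The other 21 members with at least 10 summed counts lay between 1.27 and 2.51 CPM on average, with 10 to 20 counts over both libraries. Mir7089 (6 and 10 counts) lies in the cell cycle phosphatase gene Cdc25a and Mir6960 (6 and 5) in Troap. Mir6996 (6 and 5) lies in the receptor gene Notch1, which keeps neural progenitors undifferentiated, and Mir6977 (5 and 9) in the receptor phosphatase gene Ptprs. Mir7026 (9 and 6) lies in the chromatin gene Ep400, Mir6971 (7 and 4) in the exosome helicase gene Skiv2l and Mir7075 (3 and 7) in the telomere gene Terf2. Mir6958 in Dennd6b (12 and 7), Mir7068 in Cherp (7 and 9) and Mir7082 in the splicing repressor gene Raver1 (6 and 4) are hairpins that fill an intron, the last reaching 4 nt beyond its start. At these counts the intervals of neighbouring genes overlap and their order is not resolved. Mir6991 (7 and 10 counts), Mir6979 (5 and 9), Mir6907 (7 and 6), Mir7033 (3 and 10), Mir6934 (9 and 3), Mir6945 (8 and 4), Mir6936 (4 and 8) and Mir6988 (3 and 7) complete those that did not pass the test between libraries.

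Most of the counts on hairpins that fill an intron belonged to Mir6944. The 15 members with both ends at splice sites summed to 339 and 281 counts, of which Mir6944 supplied 293 and 250. The other 14 averaged 3.29 counts per gene in replicate 1 and 2.21 in replicate 2. The 151 members at the 3′ splice site only averaged 2.21 and 2.14, and 111 of them (73.5%) had a count in at least one library, against 13 of the 15 (86.7%). The 4 members at a 5′ splice site summed to 12 and 21 counts, or 3 and 5.25 per gene, the higher average in replicate 2 resting on few genes.

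Members with more reads lay, by the median, in shorter introns. The host intron had a median of 227 nt for the 28 members with at least 10 counts, 412 nt for the 107 with 1 to 9 and 479 nt for the 43 with none, and 4, 9 and 2 members of these sets filled their intron. The median hairpin length was 64, 67 and 65 nt in the same order, and the median GC content 61.8%, 58.3% and 55.6%. The median predicted folding energy per nt was -0.416, -0.397 and -0.389 kcal/mol over 24, 98 and 39 members with a hairpin sequence. Intron length, GC content and folding energy thus ran in the order of the counts. Their ranges overlapped widely, as among the 28 members GC content ranged from 25.3% in Mir6951 to 81.5% in Mir6936. These are descriptions across genes of the same 2 libraries.

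Of 5 mirtrons known from earlier work, 1 stood above Mir6944 in both libraries. Mir877, which fills an 85 nt intron of Abcf1, had 128 and 132 CPM, or 130 ± 2.53. Mir702 in Plod3 had 78.5 and 74.2 CPM, so its range overlapped that of Mir6944. Mir1981 in Marc2 had 76.0 and 41.9 CPM, below Mir6944 in each library. In replicate 1 that order rested on 282 against 293 counts, which is within counting error. Mir1224, at 5.39 and 8.38 CPM, matched Mir7083 in replicate 1 and exceeded it in replicate 2, and Mir1982, at 2.70 and 3.45 CPM, lay among the other predicted mirtrons. The 5 genes summed to 291 and 260 CPM, more than all 178 predicted mirtrons in both libraries. Mir3102, which fills a 104 nt intron of Arhgef17 and belongs to the sequencing-discovered genes Mir3057 to Mir3114, had 116 and 73.2 CPM. Those 50 genes summed to 838 and 699 CPM. The others of that list with the highest levels, none at a 3′ splice site, were Mir3071 (189 ± 34.4 CPM), Mir3074-1 (166 ± 22.1 CPM) and Mir3099 (62.1 ± 5.20 CPM). The genes Mir484 and Mir320, whose hairpins also bypass Drosha but without splicing, had 1801 ± 144 and 554 ± 99.7 CPM. With 2 libraries the smallest two-sided p of a permutation test is 0.5, so an order between genes is given only where both libraries show it. Mir3071 and Mir3074-1 changed places between the libraries, at 214 against 151 CPM in replicate 1 and 165 against 182 CPM in replicate 2.

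The 2 pools differed in few predicted mirtrons. For every gene with at least 10 summed counts, the split of its reads between the libraries was set against the split of the totals in an exact binomial test (two-sided), and p-values were adjusted by Benjamini-Hochberg over all 444 such genes. Of the 28 members tested, 4 passed, 3 higher in replicate 1 and 1 in replicate 2, whereas 53.2% of all tested genes passed. Among the 236 genes that passed in all, 201 were higher in replicate 1. The members had a median of 14 summed counts and all tested genes a median of 578, so smaller differences were not detectable in members at this depth. On the log2 scale, the ratio of replicate 1 to replicate 2 had a median of 0.17 over the members and 0.27 over all tested genes. With TMM scaling, which lowers every ratio by 0.29, the medians were -0.12 and -0.02.

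Mir6944 was 1.28-fold higher in replicate 1 (exact 95% interval 1.08 to 1.52, exact binomial adjusted p = 0.00855). With TMM scaling its log2 ratio fell from 0.36 to 0.07 (exact binomial adjusted p = 0.709), and with DESeq2's size factors to 0.09 (exact binomial adjusted p = 0.642). Mir7059, in the lysosomal gene Cln3, had 12 counts in replicate 1 and 2 in replicate 2, a ratio of 6.56 (exact interval 1.46 to 60.4, exact binomial adjusted p = 0.0119). Mir6990, in the nuclear receptor gene Esrra, had 9 counts and 1 count, a ratio of 9.84 (exact interval 1.36 to 431, exact binomial adjusted p = 0.0180). It did not pass with TMM scaling (exact binomial adjusted p = 0.0563) or DESeq2's size factors (exact binomial adjusted p = 0.0556). Mir6951, in the antizyme inhibitor gene Azin1, had 4 counts in replicate 1 and 16 in replicate 2 and was 3.66-fold higher there (exact interval 1.18 to 15.0, exact binomial adjusted p = 0.0264). Mir7059 and Mir6951 thus passed under all 3 scalings, and Mir6944 and Mir6990 only with library totals. All 6 marker sets were also higher in replicate 1 when scaled by totals, as were 329 of all 444 tested genes. The sets were the neural, endothelial, mesenchyme and muscle sums given above, the erythroid genes at 520 against 368 CPM and the epithelial genes at 4063 against 3670 CPM. Their part in these differences was not tested. The test sets 1 library against another, with no condition between them, and its p-values are too small wherever several reads are PCR copies of 1 molecule.

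**Figure D4:**
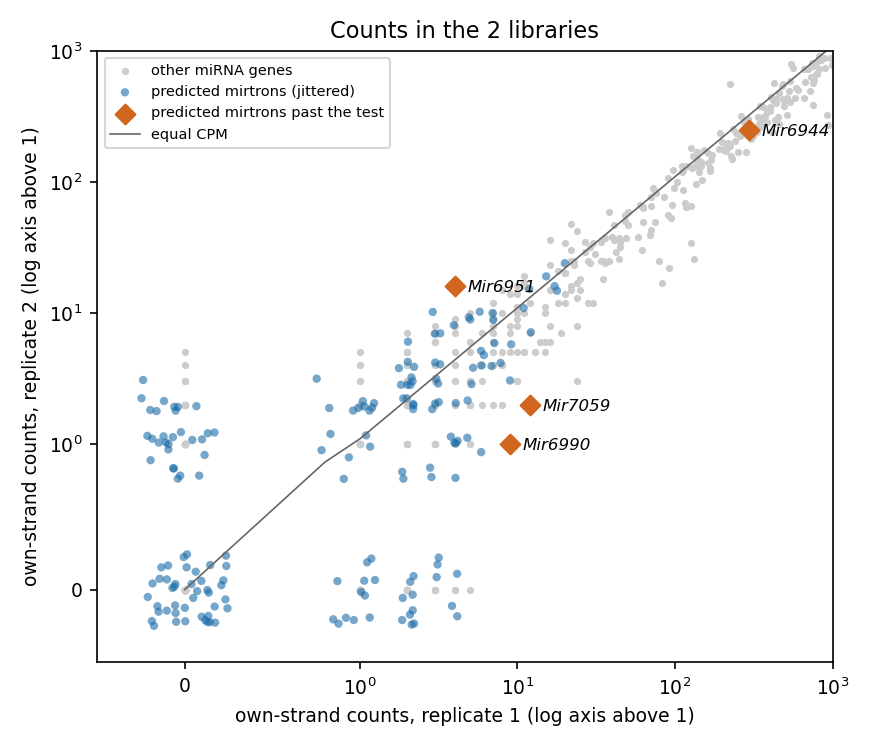
Own-strand counts of each gene in replicate 1 (horizontal axis) and replicate 2 (vertical axis), on axes that are logarithmic above 1 count and end at 1000. Predicted mirtrons are circles, jittered slightly, those that passed the exact binomial test are diamonds, other miRNA genes are grey, and the line marks equal CPM. Mir7059 and Mir6990 lie below the line and Mir6951 above it, while Mir6944 lies just below it.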

How the data were processed

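Small RNA sequencing of 2 libraries was analysed. The authors deposited raw counts of reads for each miRNA gene on mm10 with GENCODE M4, per the file headers of the sample descriptions. The aligner and the counter were not given in the sources used here. Of 3 unnamed columns, the first is the sum of the other 2, and the own-strand one was used. Which of the 2 is the own strand was taken from the layout, since the sum does not show it. The number of per-sample columns not tied to a sample was 0. Rows that name no gene held 56.5% of reads in replicate 1 and 47.0% in replicate 2, of which reads mapped to several places were 25.2% and 27.3% of all reads, and were left out.

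Symbols, coordinates and introns came from GENCODE M21, matched by gene identifier for 1894 of 1973 genes, and mature and hairpin sequences from RefSeq (GRCm38.p6). Hairpin ends were compared with every intron on the same strand, within 5 nt. Counts are per hairpin, so arms were not told apart. Members without a RefSeq entry, Mir6951, Mir6971 and Mir6979 among the 28, have no sequence here. Hairpins were folded with RNAfold (ViennaRNA 2.7.2).

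The exact binomial test used a pseudocount of 0.5 counts in log2 ratios, a minimum of 10 summed counts and a threshold of 0.05. It was tried on data simulated with counting noise only, so spread between pools was not part of that trial. R 4.3.3 with edgeR 4.0.16 gave the TMM factors, and DESeq2 1.42.0 the size factors, both over genes with at least 10 summed counts. The rest used Python 3.11.15, pandas 2.3.3, scipy 1.17.1 and statsmodels 0.14.6. Named members were those with at least 10 summed counts or past the test, and up to 4 of each comparison list; Mir1982, the hairpins of unusual position, those in the seed sets and other members named at lower counts were added after their values were seen. The members, lists and tests were chosen with earlier results of these data known. The labels name 2 separate pools, and the binomial p-values take counting noise as the only spread between them.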

Additional observations from a re-analysis of the deposited data

How the results depend on the processing

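The group's share of counts was 0.0173% on average, 0.0158% to 0.0188% in the single libraries, 0.0170% in the counts of either strand and 0.0172% without members that share a run with another hairpin. It fell to 0.0131% when restricted to members with at least 10 summed counts, and to 0.0103% without Mir6944, an alternative chosen after seeing the data. The number of members with a count in both libraries, 79, was 79 on either strand and 77 without members that share a run. It was 52 with at least 2 counts in each library and 32 with at least 3, and 28 members had at least 10 summed counts. With 1 library left out, 106 to 108 had a count in the other. The number that differed between the libraries, 4 of 28, was 2 with TMM scaling (39.9% of all tested genes passed), 2 with DESeq2's size factors (41.0%) and 2 of 8 among genes with at least 20 summed counts (61.9%), after Mir7059 and Mir6990 left the test. It was 4 of 135 with at least 1 summed count (31.6%) and 4 of 28 with counts of either strand (54.0%). With TMM scaling or DESeq2's size factors, 2 of the 28 log2 ratios changed sign, neither past the test. No test is possible with 1 library left out. Splice site placement held for 170 members within 2 nt and 176 within 10 nt. Most members have fewer than 10 reads, which limits any statement on a single gene.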
